A study of Mus musculus with 288 samples.

Results

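Pax4, Pax6, Isl1, Nkx2-2, Rfx6 and Onecut3 are transcription factors of endocrine cells, and their reads are described here in single cells sorted from the upper small intestine of the mouse. These 6 genes of the 46078 mouse genes counted were taken by name, and all 6 had enough reads to enter every test. The tissue was the first 10 cm of small intestine taken from male GLU-Venus mice aged 20–21 weeks on a C57BL6 background. In this strain the proglucagon promoter drives the fluorescent protein Venus, so that cells with an active promoter (PPG-cells, also called L-cells) can be sorted, including dimly fluorescent ones, and all the cells of this series carry the transgene. The 288 cells lay in 3 pools of 96. The labels call every cell an L-cell and give its pool, but neither its mouse nor its fluorescence. Each pool is taken here as 1 mouse and as 1 replicate. According to the study's methods, non-fluorescent control cells were collected too, and these could not be told apart from the PPG-cells in the labels. By the study's account the deeply sequenced mouse gave fluorescent cells alone, so that the hormone-poor cells of that pool would be sorted positives.

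Each cell was read out by Smart-seq2, a method that copies full-length cDNA, does not record the strand and adds no molecular identifiers. Cells with at least 20000 reads on mouse genes and at most 20% of these on mitochondrial genes were kept, which left 250 cells. Values of the pools are given throughout in the order SLX-11175, SLX-11179 and last SLX-9703. The pools kept 75, 87 and 88 cells, with a median depth of 52571, 70726 and 1975706 reads on mouse genes, so that SLX-9703 is called the deep pool and the other two the shallow pools. Levels are CPM, the reads of a gene divided by all mouse gene reads of the cell and scaled to a common total. In a cell with 20000 reads, 1 read is 50 CPM, and a level of 0 in a shallow cell is a level that was not detectable at that depth.

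Cells were put into exclusive classes by genes other than the members. Gcg-high cells had at least 10000 CPM of Gcg, the proglucagon gene, and numbered 16, 18 and 19 in the 3 pools. Gip-high cells had at least 10000 CPM of Gip, the gene of the K-cell hormone GIP, and numbered 10, 5 and 10. Pzp-positive cells had at least 100 CPM of Pzp, which encodes an alpha-2-macroglobulin-like protease inhibitor, and numbered 14, 22 and 28. A further 5 cells met more than 1 of these limits and are called mixed. Cck-high cells (9, 13 and 15) had at least 10000 CPM of the cholecystokinin gene and met none of these limits, hormone-poor cells (19, 19 and 10) had under 10000 CPM in the sum of 8 hormone genes, and 18 other cells remained. Classes are ranges of a level, not cell types. Without the exclusion there were 58 cells with high Gcg, 29 with high Gip and 65 with Pzp, of which 4 had both Gcg and Gip, 1 had Gcg and Pzp and none had Gip and Pzp.

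Enteroendocrine cells arise from a common progenitor of the crypt under the bHLH factor Neurog3, and the factors that follow it choose and maintain the hormones of each cell. Pax4 and Pax6 are paired-homeodomain proteins, Isl1 is a LIM-homeodomain protein, Nkx2-2 is an NK-type homeodomain protein, Onecut3 joins a cut domain to a homeodomain, and Rfx6 is a winged-helix protein of the RFX family. In the pancreas and the gut, Pax4 and Nkx2-2 are known for early steps of endocrine differentiation, Pax6 and Isl1 for hormone gene transcription in maturing cells, and Rfx6 for islet cell formation and for Gip transcription in K-cells. No read of Neurog3 was found in any of these cells.

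Rfx6 and Onecut3 had the sharpest patterns of the 6, and these lay in different cells. A read of Rfx6 was present in each of the 25 Gip-high cells, at a mean of 359 ± 144 CPM (SD, n = 3 pools), against 20.5 ± 13.9 CPM in Gcg-high cells and 10.8 ± 7.89 CPM in Pzp-positive cells. Onecut3 had reads in 62 of the 64 Pzp-positive cells, at 240 ± 89.3 CPM, against 30.9 ± 19.7 CPM in Gcg-high cells and 1.05 ± 1.82 CPM in Gip-high cells. In the edgeR fit reported, Rfx6 passed in Gip-high over Pzp-positive cells but not in Gip-high over Gcg-high cells. No difference of Onecut3 between the hormone classes passed in it. Isl1 and Pax6 were read in all 3 hormone classes, whose differences did not pass for either gene in the same fit. In Gip-high over Pzp-positive cells Isl1 passed in 4 of 19 settings and Pax6 in 1. In the fit reported, Isl1 and Pax6 were the members that rose past the test in hormone-bearing over hormone-poor cells. Nkx2-2 and Pax4 had few reads.

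**Figure D1:**
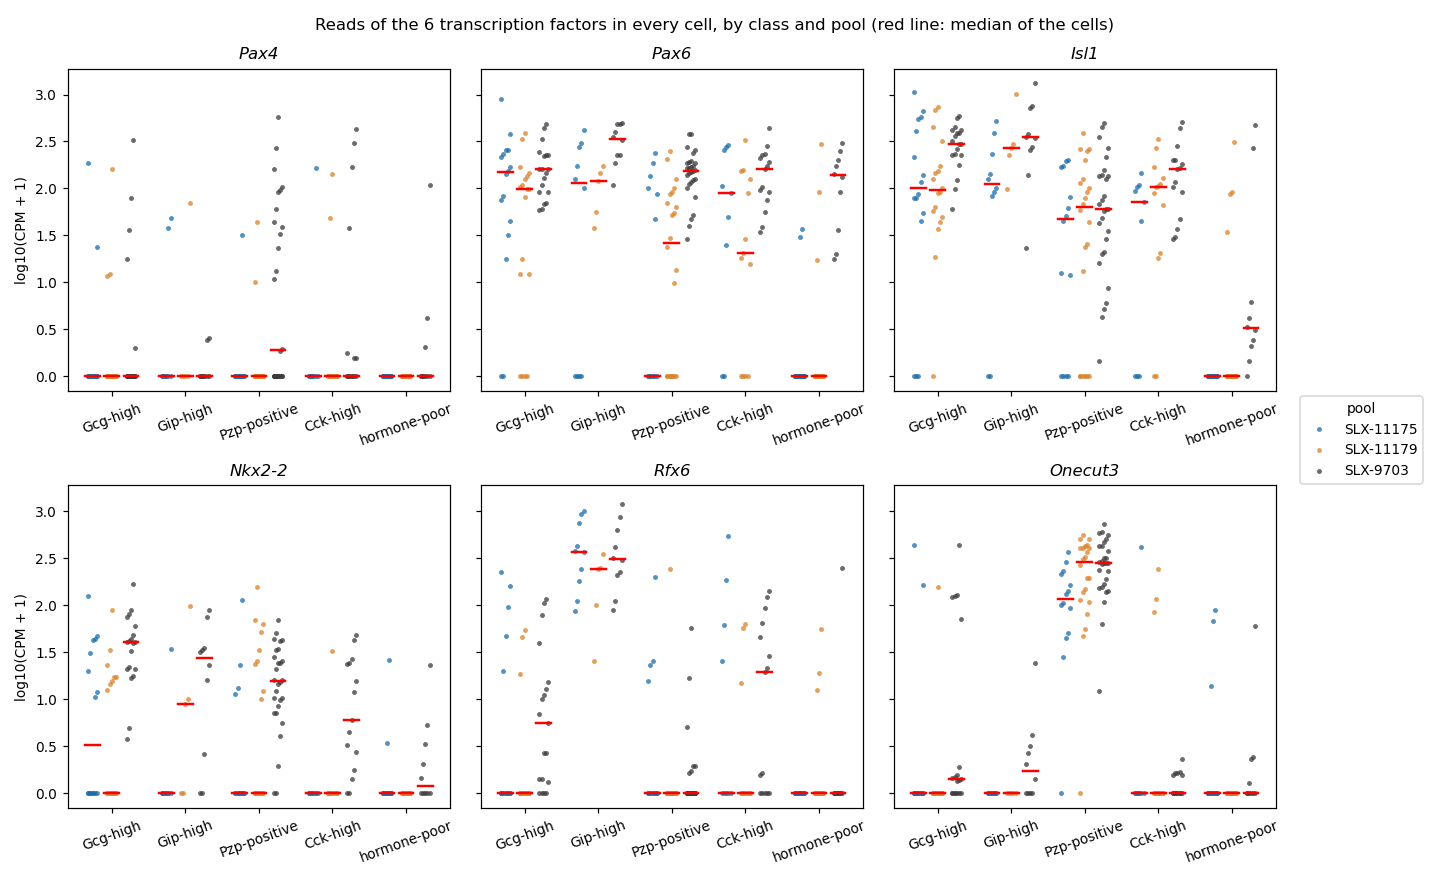
Level of each factor in every cell of 5 classes, as log10(CPM + 1) on the y axis, with 1 point per cell coloured by pool and a red line at the median of the cells of a class and pool. Rfx6 is above 0 in all 25 Gip-high cells and Onecut3 in 62 of the 64 Pzp-positive cells, while Pax4 is at 0 in most cells of each class.

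The promoters of Pzp, Gip, Gcg and Rfx6 are shown because the levels of Onecut3 and Rfx6 are set against these products in the following. Each is the 250 bases before a transcription start in RefSeq on GRCm38.p6, 5′ to 3′ on the strand of the gene. The RefSeq start of Rfx6 lies inside the longer gene of GENCODE whose coordinates are given further on. Both strands were searched for the Onecut core ATCAAT, the Rfx half-site GTTGCC and the homeodomain core TAAT, which occur in 6.72%, 10.4% and 54.9% of the 32851 windows of this length. Capitals mark the Onecut core in the Pzp promoter, where it reads ATTGAT on the strand shown.
Pzp: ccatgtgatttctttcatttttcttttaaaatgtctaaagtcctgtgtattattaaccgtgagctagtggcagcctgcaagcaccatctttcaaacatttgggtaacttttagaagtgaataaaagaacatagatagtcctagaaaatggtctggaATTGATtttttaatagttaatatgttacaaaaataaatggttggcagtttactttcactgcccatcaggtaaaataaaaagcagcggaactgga
The Pzp window lies on the minus strand at chr6:128526721-128526970, its 1 Onecut core starts 94 bases before the transcription start, and it also holds 4 homeodomain cores, of which 2 overlap. In the 3 windows that follow, capitals mark the homeodomain core, which reads TAAT or ATTA.
Gip: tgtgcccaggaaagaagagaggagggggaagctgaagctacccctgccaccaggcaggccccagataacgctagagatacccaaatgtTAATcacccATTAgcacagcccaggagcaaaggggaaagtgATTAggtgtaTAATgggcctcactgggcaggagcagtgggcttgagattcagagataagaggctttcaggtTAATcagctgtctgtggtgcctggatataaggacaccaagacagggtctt
Gcg: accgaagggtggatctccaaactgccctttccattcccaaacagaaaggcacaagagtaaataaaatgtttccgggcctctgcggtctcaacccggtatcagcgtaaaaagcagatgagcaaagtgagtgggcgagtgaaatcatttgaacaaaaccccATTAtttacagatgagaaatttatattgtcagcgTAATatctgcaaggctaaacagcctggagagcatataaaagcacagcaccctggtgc
Rfx6: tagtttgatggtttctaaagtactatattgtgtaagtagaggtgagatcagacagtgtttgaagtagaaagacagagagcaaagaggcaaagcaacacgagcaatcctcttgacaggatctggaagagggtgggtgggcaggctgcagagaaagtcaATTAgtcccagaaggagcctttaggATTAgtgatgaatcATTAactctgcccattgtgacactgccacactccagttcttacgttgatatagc
The Gip window (chr11:96024295-96024544, plus strand) holds 5 homeodomain cores, the Gcg window (chr2:62483654-62483903, minus strand) 2 and the Rfx6 window (chr10:51685268-51685517, plus strand) 3. None of these 3 windows holds the letters of the Onecut core or of the Rfx half-site. Among the other members in the table, the window before the first RefSeq start of Pax6 holds 1 Rfx half-site and 2 homeodomain cores, that of Isl1 2 and that of Nkx2-2 1 homeodomain core. The window of Cck, whose level did not follow Onecut3 (Spearman's correlation 0.27, -0.16 and 0.06), also holds 1 Onecut core, and neither window of Tph1, whose level did, holds one. These matches describe letters and are not evidence of binding.

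Rfx6 (ENSMUSG00000019900, mm10 chr10:51677756-51730432, plus strand, 4010 exon bases) had 5313 reads in the 25 Gip-high cells. In pool SLX-11175 the 10 Gip-high cells ranged from 85.8 to 999 CPM (median 373), in pool SLX-11179 the 5 cells from 24.6 to 354 CPM (median 243) and in the deep pool the 10 cells from 88.8 to 1189 CPM (median 312). The means of the 3 pools were 448, 193 and 437 CPM. Every Gip-high cell was thus above 0, and 24 of the 25 were at 50 CPM or more.

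In Gcg-high cells the median of Rfx6 was 0 CPM in both shallow pools and 4.60 CPM in the deep pool, with the highest cell at 227, 53.3 and 117 CPM. Pzp-positive cells had a median of 0 CPM in each pool, and their highest cells were at 199, 240 and 56.6 CPM. The classes overlapped at their edges but not at their centres: in none of the pools did a Gcg-high or Pzp-positive cell exceed the Gip-high median. Of the Gip-high cells, 7 of 10, 4 of 5 and 8 of 10 were above the highest Gcg-high cell of their pool.

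The pattern was also present at equal depth. After each cell was thinned to 20000 reads, Rfx6 was still read in all 25 Gip-high cells, against 5 of 16, 1 of 18 and 3 of 19 Gcg-high cells and 2 of 14, 1 of 22 and 2 of 28 Pzp-positive cells. Without thinning the Gcg-high cells with a read were 5, 3 and 15, and the Pzp-positive ones 4, 1 and 7.

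In the summed counts Gip-high cells were highest in each pool, and the order of the other classes differed between pools. Rfx6 was 12.3-, 41.9- and 18.5-fold higher in the Gip-high than in the Gcg-high sum of the same pool, and 24.8-, 20.0- and 113-fold higher than in the Pzp-positive sum. In edgeR's quasi-likelihood test on the sums, with the pool as a block and Benjamini-Hochberg adjustment over all 14583 genes tested, the log2 fold change of Gip-high over Pzp-positive cells was 5.79 ± 1.06 (SE, adjusted p = 0.0116), past the threshold of 0.05. This was 1 of 91 genes called (0.624% of those tested), and the only member called. The call was lost without pool SLX-11175 (5.99, adjusted p = 0.0704) and without pool SLX-11179 (6.17, adjusted p = 0.107), and it was made without the deep pool (5.15, adjusted p = 0.0124).

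Gip-high over Gcg-high cells gave a log2 fold change of 4.79 ± 0.99 for Rfx6 with an adjusted p of 0.0516 in the same edgeR fit, just outside the threshold, where 31 genes (0.213%) were called. Over the alternative settings this estimate ran from 3.11 to 5.14 and the adjusted p from 1.83e-06 to 0.346. It passed in 8 of the 19 settings run, and these count the one reported here.

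Rfx6 was not confined to cells with much Gip. At 50 CPM or more it was found in 56 cells, of which 24 were Gip-high, 4 mixed, 9 Cck-high, 7 Gcg-high, 7 other, 3 Pzp-positive and 2 hormone-poor. Cck-high cells had means of 90.4, 10.3 and 35.4 CPM in the 3 pools. All 4 cells with both Gcg and Gip above their limits had Rfx6, from 53.1 to 906 CPM. By level of Gip, the mean of Rfx6 was 19.2 CPM in the 217 cells with under 1000 CPM of Gip, 478 CPM in the 14 cells with 10000 to 100000 CPM and 296 CPM in the 15 cells above, and 4 cells in between had 0 to 328 CPM. Within the pools the means were 448 (6 cells), 574 (2) and 476 CPM (6) at 10000 to 100000 CPM of Gip and 359 (6), 181 (4) and 313 CPM (5) above, with ranges that overlapped in each pool.

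**Figure D2:**
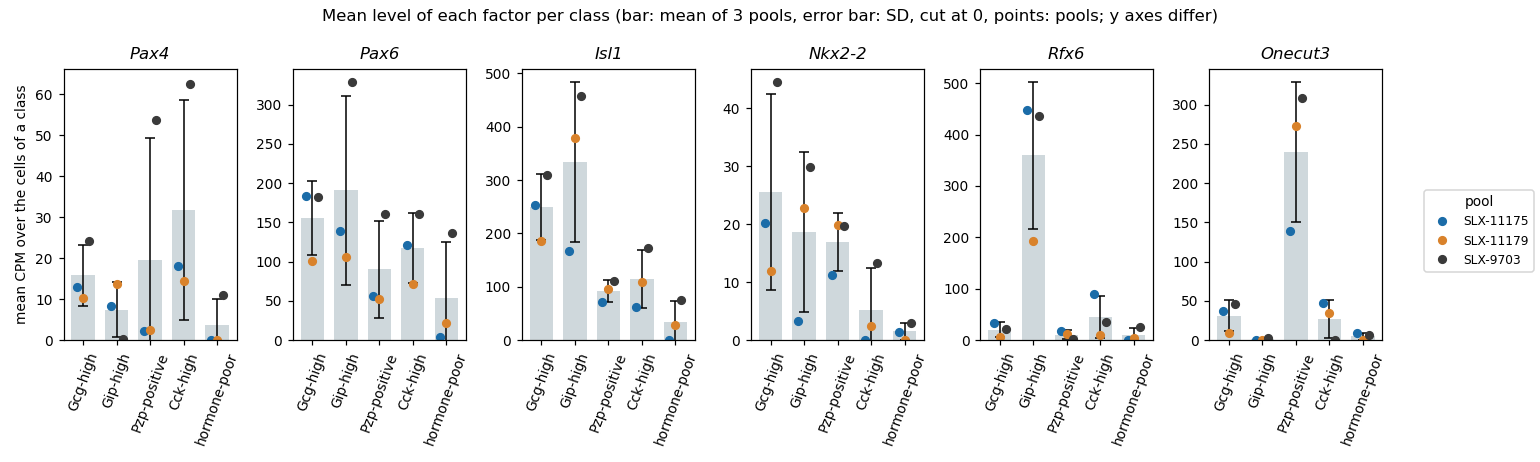
Mean CPM over the cells of a class on the y axis for each factor, with a bar at the mean of 3 pools, an error bar of 1 SD and 1 point per pool; the y axes differ between factors. Rfx6 stands highest in Gip-high cells (359 CPM) and Onecut3 in Pzp-positive cells (240 CPM), and the points of Isl1 and Pax6 in the classes overlap more.

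Onecut3 (ENSMUSG00000045518, mm10 chr10:80494835-80517276, plus strand, 4776 exon bases) overlaps the gene 2610034O05Rik on the same strand, and reads shared by both cannot be divided. The 14 Pzp-positive cells of pool SLX-11175 ranged from 0 to 366 CPM (median 117), the 22 of pool SLX-11179 from 0 to 554 CPM (median 288) and the 28 of the deep pool from 11.3 to 740 CPM (median 281). Means were 139, 273 and 308 CPM. Of these cells 13 of 14, 21 of 22 and 28 of 28 had a read, and after thinning 11, 20 and 27.

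Gip-high cells had no read of Onecut3 in either shallow pool and a mean of 3.16 CPM in the deep pool, where 6 of 10 cells had a read and the highest was at 23.2 CPM. After thinning to 20000 reads, 0 of 25 Gip-high cells had a read, which allows up to 13.7% of cells with a read at that depth (exact Clopper-Pearson interval, 95%, counting error only, over cells of 3 pools). In Gcg-high cells the mean was 37.4, 8.71 and 46.4 CPM, the median was 0, 0 and 0.419 CPM, and the highest cells stood at 435, 157 and 434 CPM. Most Gcg-high cells were therefore at or near 0 and a few were at the level of Pzp-positive cells: 2, 0 and 1 of them exceeded the Pzp-positive median of their pool. Of the 8 Gcg-high cells with at least 50 CPM of Onecut3, none had 50 CPM of Tph1.

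Summed counts of Onecut3 were at least 18.8- and at least 54.8-fold higher in Pzp-positive than in Gip-high cells of the shallow pools, where the Gip-high sums held no read and 3 reads per sum were taken as the floor, and 54.2-fold higher in the deep pool. Against Gcg-high cells the ratios were 5.01, 52.3 and 4.83. The edgeR log2 fold change of Gip-high over Pzp-positive cells was -5.62 ± 1.49 with an adjusted p of 0.114, which did not pass, and over the alternatives it ran from -10.3 to -3.84, with adjusted p from 6.13e-06 to 0.396. It passed in 4 of 19 settings, one of them the fit without the deep pool. Gcg-high over Pzp-positive cells gave -2.94 ± 1.27 (unadjusted p = 0.0327, adjusted p = 1), in a comparison in which only 5 genes (0.0343%) were called. The direction was the same in each pool and the size did not pass the test.

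Onecut3 followed Pzp across the classes, and less within the Pzp-positive one. Across the cells of a pool without the hormone-poor ones (n = 56, 68 and 78), Spearman's correlation of Onecut3 with Pzp was 0.78, 0.76 and 0.71. With Tph1, which encodes the rate-limiting enzyme of serotonin synthesis outside the brain, the correlation was 0.52, 0.50 and 0.70. The correlation with Gcg was -0.11, -0.45 and -0.36, with Pyy -0.33, -0.44 and -0.31, and with Gip -0.21, -0.38 and -0.24. These correlations run across cells of 1 mouse that share library depth and composition, and they are descriptions without a test. Within the 14, 22 and 28 Pzp-positive cells the correlation with Pzp was 0.48, 0.20 and 0.39. With all cells, the correlation with Pzp was 0.76, 0.78 and 0.69, and with all cells thinned 0.63, 0.76 and 0.82.

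The limit of 100 CPM for Pzp falls inside this relation. Onecut3 had a mean of 16.4 CPM in the 133 cells without a Pzp read and 11.98 CPM in 24 cells, all of the deep pool, with 1 to 10 CPM of Pzp. It had a mean of 131 CPM in the 9 cells just under the limit (10 to 100 CPM of Pzp) and 97.0 CPM in the 9 cells just over it (100 to 300 CPM), then 247 CPM in 33 cells with 300 to 1000 CPM and 333 CPM in 23 cells with 1000 CPM or more. Cells with a Pzp read but under 1 CPM were not binned. The cells just under the limit ranged from 0 to 421 CPM and those just over it from 0 to 233 CPM. Within the pools the means were 293 (2 cells), 71.6 (5) and 119 CPM (2) just under and 75.2 (5), 45.8 (1) and 150.4 CPM (3) just over it, too few cells to order them. Within Pzp-positive cells, those with at least 50 CPM of Tph1 (8, 9 and 23) had means of 158, 313 and 315 CPM of Onecut3, and those with less (6, 13 and 5) had 113, 245 and 278 CPM.

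In the shallow pools Onecut3 was also found in cells with much neurotensin transcript. Among the 18 other cells, 12 had at least 10000 CPM of Nts and 9 of these had at least 50 CPM of Tph1. Onecut3 was at 50 CPM or more in 2 of 2, 4 of 8 and 0 of 2 of these cells in the 3 pools, with means of 84.3, 109 and 0.35 CPM. Rfx6 reached 50 CPM in 5, with a mean of 58.6 CPM and a range of 0 to 171 CPM. Isl1 reached 50 CPM in 4 of the 12.

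**Figure D3:**
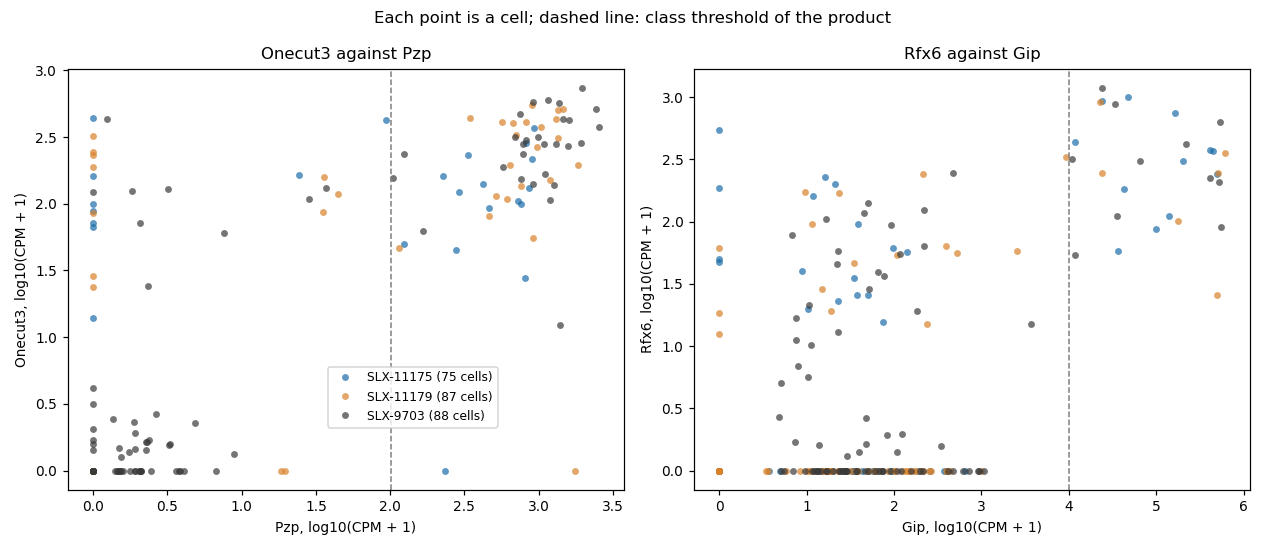
Level of Onecut3 against Pzp (left) and of Rfx6 against Gip (right) in every cell, both axes as log10(CPM + 1), with dashed lines at the class limits of 100 CPM of Pzp and 10000 CPM of Gip. Onecut3 has a mean of 16.4 CPM in cells without a Pzp read, 131 CPM just under and 97.0 CPM just over the limit, and 333 CPM at 1000 CPM of Pzp or more, while Rfx6 separates the cells above the Gip limit from most of those below it.

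Isl1 (ENSMUSG00000042258, mm10 chr13:116298281-116309689, minus strand, 3959 exon bases) was read in all 3 hormone classes. Gcg-high cells ranged from 0 to 1052 CPM (median 101) in pool SLX-11175, from 0 to 740 CPM (median 95.6) in pool SLX-11179 and from 59.6 to 590 CPM (median 298) in the deep pool. Gip-high cells had medians of 112, 271 and 351 CPM and reached 518, 1005 and 1319 CPM. Pzp-positive cells had medians of 46.6, 62.5 and 59.9 CPM and reached 198, 384 and 498 CPM. The ranges of the 3 classes overlapped widely, but in each pool the Pzp-positive median was the lowest of the 3.

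Means over the pools were 249.3 ± 61.9 CPM in Gcg-high, 335 ± 150 CPM in Gip-high and 92.3 ± 20.2 CPM in Pzp-positive cells (SD, n = 3 pools). Gcg-high and Gip-high cells did not differ beyond their spread (edgeR log2 fold change 0.77 ± 0.72 for Gip-high over Gcg-high, adjusted p = 0.784). Against Pzp-positive cells the summed counts of Isl1 were 4.95-, 1.89- and 2.72-fold higher in Gcg-high and 2.98-, 4.89- and 3.98-fold higher in Gip-high cells. Without the highest Gip-high cell of each pool the latter were 2.32, 2.28 and 3.63, and in pool SLX-11179 that cell held 220 of the 307 reads of the class. In edgeR these differences were 1.87 ± 0.74 (unadjusted p = 0.0203, adjusted p = 1) and 2.64 ± 0.76 (adjusted p = 0.144) on the log2 scale and did not pass. The latter passed in 4 of 19 settings (DESeq2, no filter on low counts, higher class limits and Slc34a2 left out), with adjusted p from 0.00108 to 0.477 over all of them.

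Per kilobase of exon, which allows genes to be set side by side, Isl1 had the highest level of the 6 members in the Gcg-high sums of every pool, at 86.8, 53.6 and 79.02 CPM per kilobase. In Gip-high sums Rfx6 was at 109, 52.2 and 91.02 and Isl1 at 52.3, 139 and 115 CPM per kilobase, so that their order changed from pool to pool. Onecut3 led in the Pzp-positive sums of every pool, at 28.1, 61.6 and 62.8 CPM per kilobase, with Isl1 at 17.5, 28.4 and 29.01.

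Hormone-poor cells had almost no Isl1 in the shallow pools, with no read in the 19 cells of pool SLX-11175 and a median of 0 CPM in pool SLX-11179. In the deep pool their median was 2.24 CPM, with the highest cell at 471 CPM. The mean of the 3 hormone classes was higher by 3.61 ± 0.75 on the log2 scale (edgeR adjusted p = 0.00392). The call held in 19 of 19 settings, while the estimate ran from 3.08 to 9.61. With 1 pool left out it ran from 3.08 to 4.29. Of 14583 genes, 1655 (11.3%) were called in this comparison, 522 higher and 1133 lower in hormone-bearing cells. In Cck-high cells Isl1 was intermediate, with means of 62.6, 109 and 172 CPM.

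Pax6 (ENSMUSG00000027168, mm10 chr2:105668900-105697364, plus strand, 11694 exon bases) overlaps the antisense gene Pax6os1, whose reads cannot be told apart without strand. It had means of 184, 101 and 182 CPM in Gcg-high cells, 139, 106 and 329 CPM in Gip-high cells and 56.4, 52.9 and 161 CPM in Pzp-positive cells. The medians were 148, 97.1 and 158 CPM, then 113, 118 and 337 CPM, then 0, 25.5 and 153 CPM. Pzp-positive cells were thus the lowest class in the shallow pools, and in the deep pool they were level with Gcg-high cells (summed counts 3.95-, 1.86- and 1.02-fold higher in Gcg-high cells). Gip-high over Pzp-positive cells had a log2 fold change of 1.80 ± 0.69 (edgeR adjusted p = 0.321), which did not pass.

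Against hormone-poor cells Pax6 rose by 2.54 ± 0.66 on the log2 scale (edgeR adjusted p = 0.0175), a call that was lost without pool SLX-11175 (2.00, adjusted p = 0.055). In the shallow pools hormone-poor cells had means of 3.43 and 21.2 CPM, and in the deep pool 136 CPM, from 16.5 to 306 CPM. A floor of Pax6 reads in the deep pool moved with this value. Of its 17 hormone-poor wells before the filters, 15 had at most 3 reads of Isl1, and these held 53 to 120 reads of Pax6 (median 80), against at most 4 reads of any other member. Across the 15 wells the Pax6 reads had a correlation of 0.745 with the spike-in reads. With the median of these wells taken off every cell of the deep pool, Isl1 and Pax6 remained the members called. The source of the floor was not tested.

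Both factors shared many cells. Among the 202 cells outside the hormone-poor class, 102 had at least 50 CPM of both Pax6 and Isl1 (23, 27 and 52 in the 3 pools), of 138 with Pax6 and 134 with Isl1. Each factor was in most of these cells, so that many would hold both without a link, and the overlap was not tested. In the deep pool 72 of 78 cells reached the limit for Pax6, whose floor adds to the level there. Of the 54 cells with Rfx6, 44 also had Pax6 and 42 had Isl1. Of the 79 cells with Onecut3, 48 had Pax6 and 44 had Isl1. Rfx6 and Onecut3 were together in 10 cells. Few cells thus carried both Rfx6 and Onecut3. The correlation between Isl1 and Pax6 was 0.32, 0.28 and 0.22 without the hormone-poor cells, and between Rfx6 and Onecut3 -0.26, -0.17 and -0.40.

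Isl1 followed Gcg more loosely than Onecut3 followed Pzp. The correlation with Gcg was 0.16, 0.08 and 0.34 without the hormone-poor cells and 0.42, 0.35 and 0.38 with them. Without the hormone-poor cells Isl1 ran against Tph1 (-0.11, -0.32 and -0.46) and against Sct, the secretin gene (-0.38, -0.24 and -0.28). With them the values were 0.08, -0.17 and -0.34 for Tph1 and 0.20, 0.21 and -0.03 for Sct, so that these signs depend on which cells are counted. Without the hormone-poor cells Rfx6 had a correlation of 0.36, 0.42 and 0.35 with Gip, and -0.57, -0.42 and -0.26 with Cck, -0.38, -0.38 and -0.28 with the ghrelin gene Ghrl and -0.43, -0.36 and -0.49 with Pzp. Within the 10, 5 and 10 Gip-high cells its correlation with Gip was -0.27, 0.60 and -0.49, so that Rfx6 differed between classes and did not follow Gip inside this one in 2 of the pools. Pax6 had no hormone with a correlation of 1 sign and beyond 0.2 in every pool, and its correlation with Gip was -0.15, 0.19 and 0.34.

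**Figure D4:**
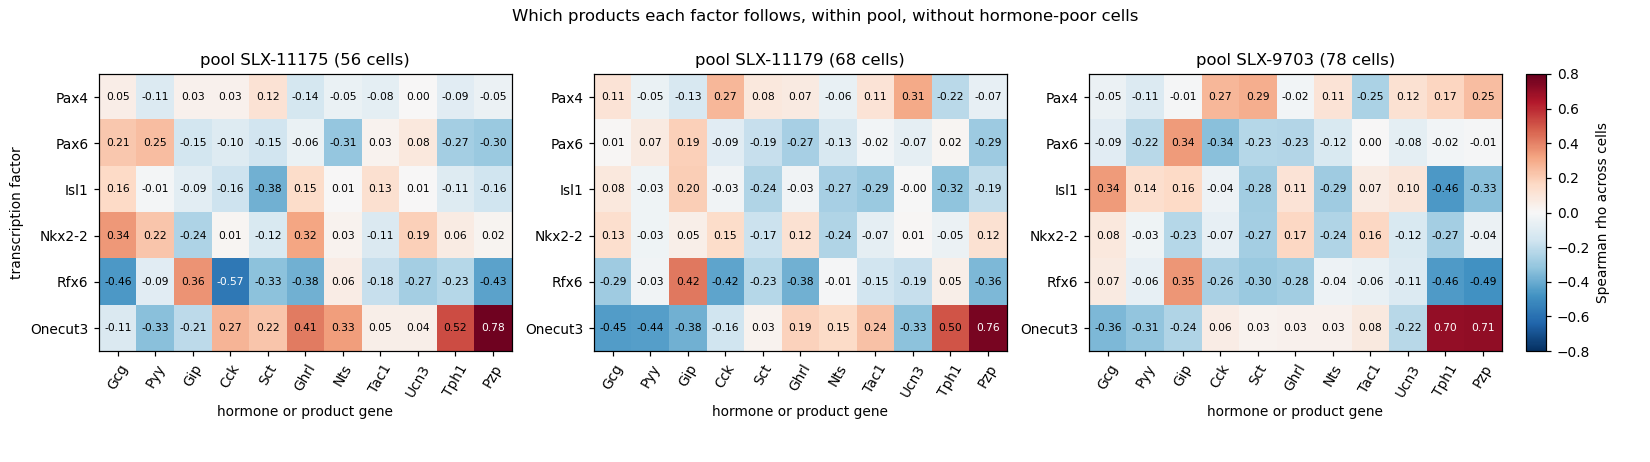
Spearman's correlation of each factor (rows) with each hormone or product gene (columns) across the cells of 1 pool without the hormone-poor ones, with 1 panel per pool (n = 56, 68 and 78 cells) and colour from negative to positive. Onecut3 with Pzp has the highest correlation of each panel, at 0.78, 0.76 and 0.71.

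Nkx2-2 (ENSMUSG00000027434, mm10 chr2:147177546-147194243, minus strand, 2875 exon bases) overlaps the antisense genes Nkx2-2os and 6430503K07Rik. Its means were 20.2, 11.96 and 44.5 CPM in Gcg-high cells, 3.31, 22.8 and 29.9 CPM in Gip-high cells and 11.2, 19.9 and 19.7 CPM in Pzp-positive cells, below the worth of 1 read in the shallowest cells. In the deep pool a read was present in 19 of 19 Gcg-high, 8 of 10 Gip-high and 26 of 28 Pzp-positive cells, and the Gcg-high cells ranged from 2.76 to 169 CPM (median 39.4). Hormone-poor cells had means of 1.47, 0 and 3.01 CPM. Nkx2-2 was thus found at low level across the 3 hormone classes, with no order of classes that held in all pools. The edgeR log2 fold changes between classes were 0.09 to 0.51 with standard errors of 1.08 to 1.13. Against hormone-poor cells the estimate was 4.09 ± 1.31 (adjusted p = 0.0514), which passed in 11 of 19 settings.

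Pax4 (ENSMUSG00000029706, mm10 chr6:28442334-28449353, minus strand, 1445 exon bases) was at 50 CPM or more in only 19 cells, 13 of them in the deep pool. These were 7 Pzp-positive, 5 Cck-high, 4 Gcg-high, 1 Gip-high, 1 mixed and 1 hormone-poor cell. In the deep pool the 28 Pzp-positive cells ranged from 0 to 573 CPM (median 0.904, mean 53.8) and the 15 Cck-high cells had a mean of 62.6 CPM, while the 10 Gip-high cells stayed at or below 1.55 CPM. In the shallow pools the Pzp-positive means were 2.19 and 2.37 CPM. Most of the Pax4 reads thus lay in a few cells. A read was found in 15 of the 28 Pzp-positive cells of the deep pool, and in 1 of 14 and 2 of 22 in the shallow pools, where a 0 is a level not detectable. Of the 18 cells with Pax4 and the 20 with Nkx2-2 at 50 CPM or more outside the hormone-poor class, none had both. With so few cells of each, few shared cells would be found without a link, and this was not tested. The correlation of Pax4 with Sct was 0.12, 0.08 and 0.29 and with Cck 0.03, 0.27 and 0.27. Its class differences were -0.01 to 0.98 on the log2 scale with standard errors of 1.36 to 1.86. The ratio of means to Pzp-positive cells was 5.9, 4.3 and 0.45 for Gcg-high and 3.8, 5.8 and 0.0055 for Gip-high cells. The positive estimates over Pzp-positive cells thus ran against the deep pool. That of Gip-high over Pzp-positive cells ran from -3.19 to 2.73 with 1 pool left out. Against hormone-poor cells, where neither shallow pool had a read of Pax4, the edgeR adjusted p was 0.171. Pax4 passed there in 2 of 19 settings, with at most 10% of reads on mitochondrial genes and with Slc34a2 left out. Over all settings this estimate ran from 1.77 to 9.78.

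**Figure D5:**
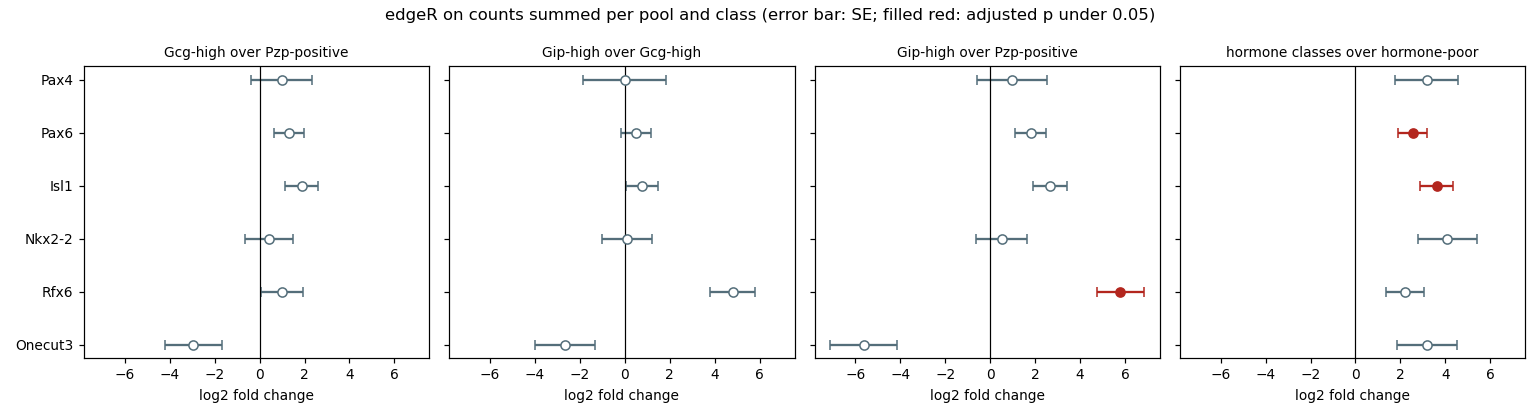
The 4 class comparisons, 1 per panel, with the edgeR log2 fold change of each factor on the x axis, a bar of 1 standard error and filled red points where the adjusted p is under 0.05. Rfx6 in Gip-high over Pzp-positive cells and Isl1 and Pax6 in hormone-bearing over hormone-poor cells are past the threshold, and the other estimates are not.

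In the edgeR fit reported, none of the 6 members was called in Gcg-high over Pzp-positive or in Gip-high over Gcg-high cells. There 2 and 1 of them had an unadjusted p under 0.05 (3.98% and 9.37% of all genes). In that fit 1 was called in Gip-high over Pzp-positive cells and 2 over hormone-poor cells (0.624% and 11.3% of all genes). Unadjusted p in the same fit was under 0.05 for 4 and 6 of the 6 members (11.1% and 25% of all genes). DESeq2 called 0, 1, 4 and 4 of the 6, and of all genes 0.336%, 1.78%, 2.98% and 13%. The median log2 fold change of the 6 was 0.99, 0.29, 1.39 and 3.18 in the 4 comparisons, against -0.04, -0.23, -0.29 and -0.27 over all genes tested. In the last comparison all 6 estimates were positive. Beside those given, they were 2.20 ± 0.84 for Rfx6, 3.19 ± 1.33 for Onecut3 and 3.17 ± 1.41 for Pax4. Rfx6 passed there in 8 of 19 settings, Onecut3 in 3 and Pax4 in 2. With Slc34a2 left out edgeR called all 6 in this comparison, beside 2173 of 13923 genes in all. Without a filter on low counts it called 5, beside 2236 of 31194 genes. The estimate of Onecut3 ran from 0.905 to 7.04 over the settings, and from 0.905 to 4.52 with 1 pool left out. Of the hormone-poor cells, 17 of 19, 16 of 19 and 3 of 10 had none of the 6 members at 50 CPM or more, and 5 had Isl1 at that level (86 to 471 CPM). The floor of Pax6 enters the value of the deep pool, where 7 of the 10 had Pax6 at that level, and without Pax6 the counts were 17, 16 and 8. A Gip-high cell had 2.4, 3.0 and 3.1 members at 50 CPM or more on average, a Gcg-high cell 1.88, 1.56 and 2.79 and a Pzp-positive cell 1.64, 2.14 and 2.75. With Pax6 not counted these were 1.8, 2.2 and 2.1, then 1.19, 0.94 and 1.79, then 1.29, 1.68 and 1.86.

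Other genes moved with these classes. The summed level of 8 pan-endocrine markers had medians of 15644, 17552 and 45221 CPM in Gcg-high cells, 1548, 5282 and 4702 CPM in Gip-high cells, 9894, 10000 and 16518 CPM in Pzp-positive cells and 18.5, 49.9 and 282 CPM in hormone-poor cells. The 6 immune markers, immunoglobulin genes among them, had medians of 3468, 378 and 4.18 CPM in hormone-poor cells and 135, 166 and 1.26 CPM in Gcg-high cells. They took 46.9%, 42.3% and 0.0993% of the reads of the hormone-poor sums, and 7 of 19, 3 of 19 and 0 of 10 of the cells had 10000 CPM or more of them. In the deep pool the highest hormone-poor cell had 2714 CPM of them. Its hormone-poor sum held 332 CPM of Ptprc and 93.6 CPM of Cd3e (TMM-scaled), against 0.142 and 0.057 CPM in its Gcg-high sum. Cells with immune marker RNA under the limit of 10000 CPM were thus kept. With the cells at or above this limit left out, Isl1 was still higher in the hormone classes by 3.51 ± 0.72 (edgeR adjusted p = 0.00509) and Pax6 by 2.42 ± 0.64 (adjusted p = 0.022). The 6 enterocyte markers reached 28168, 9279 and 27765 CPM in the highest hormone-poor cell of each pool, at medians of 1.98, 7.38 and 35.3 CPM. The summed level of 5 goblet cell markers was 3447, 3175 and 5338 CPM in Pzp-positive cells, against 298, 441 and 570 CPM in Gcg-high cells, with Clca1 at 0 in all 3 pools and only 2 of the 5 in at least 10% of the Pzp-positive cells. The part of the other markers in the results was not tested. Slc34a2, a phosphate transporter gene, took a median of 35.4%, 33.4% and 13.8% of the mouse reads of a cell. Its reads were found in every cell, in the deep pool in similar number across classes. There they ran from 171684 to 447301, with a median of 291111 in hormone-poor, 283501 in Gcg-high and 273582 in Gip-high cells. In the shallow pools the medians differed more. They were 24964 in hormone-poor and 15961 in Gip-high cells of pool SLX-11175, and 27681 and 19316 in pool SLX-11179. The reads of Slc34a2 enter the total behind every CPM here, so that a cell with few other reads has a high share of them, and their source was not tested. When Slc34a2 was left out of the totals, 199 cells passed, of which 187 stayed in their class. The hormone-poor class went from 19, 19 and 10 cells to 7, 6 and 4. The Gip-high class then held 2, 5 and 9 cells, 15 of them Gip-high before, and the mean of Rfx6 in it was 419, 320 and 738 CPM, while Onecut3 in Pzp-positive cells was at 236, 451 and 381 CPM.

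The genes whose levels ran most like a member were sought in the 88 cells of the deep pool, among 13235 genes with a read in at least 20% of them, and their correlation in pools SLX-11175 and SLX-11179 is given beside it. For Onecut3 these were Cyp2j5, an arachidonic acid epoxygenase (0.744, then 0.765 and 0.736), Fcgbp, a mucus protein of the goblet list (0.730, then 0.384 and 0.673), and Rgs2, a regulator of G-protein signalling (0.723, then 0.742 and 0.775). The likeness of Cyp2j5 and Rgs2 was of the same size in every pool. For Isl1 they were Ptprn2 (0.588, 0.343 and 0.450), a protein of dense-core vesicles, Abcc8 (0.568, 0.361 and 0.492), the sulphonylurea receptor, and Sphkap (0.566, 0.447 and 0.411). For Rfx6 they were Abcc8 (0.619, 0.206 and 0.056), Mum1l1 (0.562, 0.312 and 0.287) and Sphkap (0.533, 0.410 and 0.152). Nkx2-2 was most like Scgn, the calcium-binding secretagogin (0.505, then 0.378 and 0.222), followed by Abcd3 (0.476, 0.200 and -0.0028) and Gsto1 (0.470, 0.347 and 0.332). Pax6 was closest to Tmtc2 (0.414, then -0.122 and -0.068), Gip (0.396, 0.108 and 0.217) and Dnah9 (0.391, 0.158 and 0.240). Pax4 was closest to Lyzl4 (0.420, 0.164 and 0.277), Gm47512 (0.389, -0.102 and 0.046) and Stxbp5l (0.363, -0.185 and 0.147). The likeness was weaker in both shallow pools than in the deep pool for each of these genes of Isl1, Rfx6, Nkx2-2, Pax6 and Pax4. Because the genes were picked by their rank in the deep pool, lower values elsewhere do not show a difference between pools. The shallow pools also had fewer reads per cell.

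Further endocrine factors were looked at as a list of 30 genes, of which 23 were tested. None was called by edgeR in Gcg-high over Pzp-positive or Gip-high over Gcg-high cells, as fitted here, where 0 and 3 of 23 had an unadjusted p under 0.05 (3.98% and 9.37% of all genes) and DESeq2 called 0 and 2 (Neurod1 and Prox1, both lower). In Gip-high over Gcg-high cells edgeR called Neurod1 lower without a filter, with library sizes without mitochondrial genes and with hormone-poor cells of the shallow pools only, and Prox1 lower with higher class limits. In the same comparison limma called both Neurod1 and Prox1 lower. In Gip-high over Pzp-positive cells 1 was lower and none higher: Prox1, a homeodomain factor, at -3.30 ± 0.68 on the log2 scale (edgeR adjusted p = 0.0278). This call was lost without any 1 of the 3 pools (adjusted p from 0.0664 to 0.331) and without the pool as a block (0.162). It was also lost at 750000 reads in the deep pool, at most 10% of mitochondrial reads and with Slc34a2 left out. The call was made in 12 of 19 settings. Neurod1 did not pass in Gip-high over Pzp-positive cells (-1.86 ± 0.44, edgeR adjusted p = 0.0649), but it was called lower by DESeq2, by limma, and by edgeR without a filter, with inclusive classes, with library sizes without mitochondrial genes and with hormone-poor cells of the shallow pools only. Over hormone-poor cells 11 of the 23 were higher and none lower, beside 11.3% of all genes called in either direction, with a list median of 2.36. Neurod1, the bHLH factor that follows Neurog3, was at 3.57 (adjusted p = 3.6e-05), Insm1, a zinc finger factor of endocrine differentiation, at 3.94, and Fev, a factor of serotonin-producing cells, at 4.32. Without 1 of the pools 5 to 7 of the list were called.

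Of 23 other genes of the Pax, Isl, Nkx2, Rfx and Onecut families, 8 had enough reads for the test, and edgeR called none in any of the 4 comparisons as fitted here. Unadjusted p was under 0.05 for 0, 1, 1 and 2 of the 8, against 3.98%, 9.37%, 11.1% and 25% of all genes, so that these counts are near the background. DESeq2 called 2, Rfx2 and Rfx3, both higher than in hormone-poor cells, and none in the other comparisons. Over hormone-poor cells edgeR called Rfx3 without pool SLX-11175 and Onecut2 with Slc34a2 left out, and limma called Rfx3. Rfx3, a ciliogenic member of the family, had the estimate of 2.80 ± 1.15 in Gip-high over Pzp-positive cells (adjusted p = 0.366), beside 5.79 for Rfx6. Onecut2, another factor with a cut domain, was found in 82.7%, 89.7% and 100% of the cells of the 3 pools, at 70.9, 109 and 113 CPM in the pool sums, while Onecut1 had 6 reads in all. Onecut2, counted at any read, was thus in most cells. Onecut3, counted at 50 CPM or more, was in 82 cells, of which 58 had at least 100 CPM of Pzp.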

How the data were processed

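Single cells of 3 pools were sequenced by Smart-seq2. The authors deposited raw counts of reads per gene and cell. According to the submitters' processing notes, reads were aligned with GSNAP (2015-09-29) to mm10 and counted with HTSeq (0.5.3p3). The table held 46078 mouse genes, 92 spike-ins and 5 lines naming no gene, with 17.1%, 5.34% and 77.6% of the counts; the last were left out. A further 4 columns matched no sample and were not used. Symbols came from GENCODE M21.

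CPM, classes, detection, thinning and Spearman's correlation were computed in Python 3.11.15. Cells are not replicates, so the counts of each class were added up within a pool (3 cells or more) and tested in R 4.3.3 with edgeR 4.0.16 (filterByExpr by class, TMM, quasi-likelihood, 1 fit over all classes), with Benjamini-Hochberg adjustment over 14583 genes and a threshold of 0.05. DESeq2 1.42.0 and limma 3.58.1 (log2 of CPM plus 1) were alternatives. The script was tested on simulated data. The pool was a block, since its classes are taken to share a mouse, and this pairs them. Deviations of sums of 1 pool from their class means had r from 0.016 to 0.344 (median 0.0906, 45 pairs). Depth per cell ran from 20121 to 4368674 reads. Without molecular identifiers, intervals cover counting error only. P-values of the fit reported rest on the spread of the sums of 3 pools that remains after class and pool are taken off. The estimate of this spread is shared by all classes, so it is not the spread of a single comparison. Cells were sorted singly and no doublet caller was run. Alternatives (other filters, classes, library sizes, tools and pools left out, and Slc34a2, the Pax6 floor or immune-rich cells taken off, chosen after seeing the data) are in the closing section.

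Members, lists and limits were chosen with earlier results of these data known. The text names the 6 members, 12 hormone and product genes, the 3 genes most like each member in the deep pool, and listed factors past the test or described by count.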

Additional observations from a re-analysis of the deposited data

Results flagged for a closer look

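In the 5 groups of 5 to 10 Gip-high, Cck-high or hormone-poor cells of 1 pool (the remainder called other cells was not looked at), the 6 members gave 27 sets of values with a read, and in 12 of these 1 cell stood far from the rest by Dixon's test. Several come from the same group of cells. Chance gives about 1 in 20 such sets where values are normally distributed, a rate that does not hold where all other cells are at 0, and cells of a class are not replicates, so each is given as a value. In the 9 Cck-high cells of pool SLX-11175 the highest values were 163 CPM of Pax4 (the next at 0), 543 CPM of Rfx6 (next 186 CPM) and 421 CPM of Onecut3 (next 0). In the 10 Gip-high cells of that pool, 1 cell had 33.1 CPM of Nkx2-2, from 5 reads, and the others none. In the 5 Gip-high cells of pool SLX-11179 the highest values were 1005 CPM of Isl1 (next 299 CPM), 97.0 CPM of Nkx2-2 (2 reads, next 9.14 CPM) and 68.5 CPM of Pax4 (next 0). In the 10 Gip-high cells of the deep pool, 1 cell had 23.2 CPM of Onecut3 (next 3.15 CPM).

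In the 10 hormone-poor cells of the deep pool the highest values were 247 CPM of Rfx6 (next 0), 107 CPM of Pax4 (next 3.13 CPM), 58.9 CPM of Onecut3 (next 1.43 CPM) and 21.9 CPM of Nkx2-2 (next 4.37 CPM).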

How the results depend on the processing

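The 24 fold changes of the members were refitted under 18 alternatives, 432 values in all: 373 kept direction and side of the threshold, 41 passed where they had not, 3 no longer passed and 15 changed sign. Rfx6 in Gip-high over Gcg-high cells passed with DESeq2 (4.95), no filter on low counts (4.65), higher class limits (4.45), library sizes without mitochondrial genes (4.71), limma on mean CPM (4.23), hormone-poor cells of the shallow pools only (4.71), hormone-poor cells with much immune marker RNA left out (4.74; both added after seeing the data) and without pool SLX-9703 (4.74); with 1 pool left out it ran from 4.45 to 4.96. Rfx6 over Pzp-positive cells ran from 5.15 to 6.17 and Pax6 over hormone-poor cells from 2.00 to 3.13 with 1 pool left out. Signs turned for Pax4 and Nkx2-2 only. Pax4 in Gip-high over Gcg-high cells was at 0.22 with DESeq2, 0.13 at a minimum of 50000 reads, 0.54 with higher limits and -3.59 to 0.60 with 1 pool left out. Over Pzp-positive cells it was at -0.58 with limma, -3.19 to 2.73 with 1 pool left out and -0.13 without the pool as a block. Nkx2-2 in Gip-high over Gcg-high cells was at -0.061 without a filter, -0.048 without the immune-rich cells, -0.33 at 50000 reads, -0.35 with inclusive classes, -0.66 with limma and -0.11 to 0.20 with 1 pool left out, and over Pzp-positive cells at -0.25 with limma. The cause was not tested.

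Counts of genes called moved more. Gcg-high over Pzp-positive cells (5) gave 49 with DESeq2, 39 without a filter, 3 without the pool block, 3 at 750000 reads in the deep pool, 14 with inclusive classes, 25 with higher limits, 16 with limma and 1 to 14 with 1 pool left out. Gip-high over Gcg-high cells (31) gave 260, 137 and 20 under the first 3 of these, 363 with limma, 16 at 50000 reads, 48 with library sizes without mitochondrial genes, 17 with Slc34a2 left out (which left 199 cells and no Gip-high sum in pool SLX-11175), 64 with shallow hormone-poor cells and 5 to 20 with 1 pool left out. Gip-high over Pzp-positive cells (91) gave 435 with DESeq2, 289 without a filter, 917 with limma, 54 at 50000 reads, 160 with shallow hormone-poor cells and 18 to 69 with 1 pool left out. Over hormone-poor cells (1655) the counts were 992 with inclusive classes, 1094 with higher limits, 776 with shallow hormone-poor cells and 661 to 1212 with 1 pool left out. Without the pool block the last 2 comparisons gave 78 and 1837, and the block changed no call of a member, while Prox1 in Gip-high over Pzp-positive cells was lost without it.

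Of 48 median correlations over pools refitted for 16 pairs of a member and a product gene, 31 moved by less than the spread between pools, 15 by more and 2 changed sign. The sign turned for Isl1 with Sct, from 0.20 with all cells to -0.28 without the hormone-poor ones and -0.13 with Slc34a2 left out. Without the hormone-poor cells Rfx6 with Cck went from -0.09 to -0.42 (-0.21 when thinned) and Rfx6 with Ghrl from -0.17 to -0.38, and the others that moved include Onecut3 with Tph1 when thinned (0.44, from 0.54), Rfx6 with Gip when thinned (0.41, from 0.37) or with Slc34a2 left out (0.30), Rfx6 with Pzp without the hormone-poor cells (-0.43, from -0.24), and Isl1 with Gcg without them (0.16, from 0.38), when thinned (0.31) or with Slc34a2 left out (0.31). In the 3 hormone classes of the shallow pools, depth limits Pax4, Nkx2-2, Rfx6 outside Gip-high and Onecut3 outside Pzp-positive cells, whose means lie under the 50 CPM that 1 read is worth at 20000 reads. The median log2 fold change of all genes ran from -0.16 to 0.02, -0.67 to 0, -0.88 to 0 and -0.39 to 0.42 over the settings in the 4 comparisons.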

Other observations

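One hormone-poor cell of the deep pool held 471 CPM of Isl1, 247 CPM of Rfx6 and 107 CPM of Pax4 together with 4471 CPM of Gcg, under the limit of the Gcg-high class. The 5 hormone-poor cells with at least 50 CPM of Isl1 lay in pool SLX-11179 (3 cells) and the deep pool (2 cells).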
